A study of Mus musculus with 12 samples.

Results

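The microglia identity genes described here are 37 genes enriched in microglia, taken from a fixed list of gene symbols and followed through all 4 groups of hippocampal slice libraries. The Ensembl identifiers in the count tables were paired with symbols through GENCODE release M21. All 37 were found, among 41091 gene identifiers, and all 37 passed the filter on low counts in every comparison. No measured value was used to choose them for this description, although the list was drawn up with earlier results of these data known.

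Each of the 4 groups held 3 libraries of total RNA, made from hippocampal mini-slices of wild type mice of the C57BL/6 strain aged 2 to 3 months. The mice were male, according to the study's methods. Slices had the dentate gyrus cut away, rested for 2 hr in interface chambers, and were then treated for 10 min. The 1 hr LTP and 3 hr LTP groups received 50 uM forskolin, which raises cyclic AMP, for 5 min and then forskolin with 30 mM KCl and 10 mM calcium, a chemical form of long-term potentiation (LTP). The 1 hr control and 3 hr control groups received artificial cerebrospinal fluid with 0.2% DMSO. Tissue was frozen 1 hr or 3 hr after treatment. Each animal gave slices to both arms at a time point, so every library is a pool of slices from 1 animal. According to the study's methods, libraries were made only from samples in which known LTP-induced transcripts had responded by qPCR. The labels number the animals 1 to 3 at both times without saying whether they are the same animals. Time after treatment, the set of animals and any difference in handling between the time points therefore cannot be told apart.

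Library totals lay between 37118382 and 50815001 counts, so that 3 counts corresponded to 0.059 to 0.0808 CPM, the unit used below for counts scaled to library size with TMM factors. The library 1 hr control 2 is left out of the tests and ranges below, and its value is given for the members described library by library. It stood apart from the other libraries when the study clustered them, and the study excluded it. A call required an adjusted p below 0.1 in the quasi-likelihood test of edgeR together with more than a 1.2-fold difference, and log2 fold changes are given ± their standard error (SE). The hippocampal identity of the tissue was visible in CA1 and CA3 pyramidal cell markers, summing to 326 to 477 CPM. Dentate granule cell markers still summed to 120 to 221 CPM after the dentate gyrus had been cut away.

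Microglia are the resident macrophages of the brain. With fine processes they survey the tissue for nucleotides released by other cells, sensed by purinergic receptors such as P2RY12, and for the neuronal chemokine fractalkine, sensed by CX3CR1. They also make C1q, the recognition molecule of the classical complement pathway, which tags synapses and debris for removal. Their identity is held by lineage transcription factors such as PU.1 (Spi1), IRF8 and SALL1, and by signalling through CSF1R and the TGF-beta receptor. Many of the genes that mark resting microglia, P2ry12 and Tmem119 among them, are known to decline when microglia are activated or taken out of the brain.

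To show what the members share in sequence, the promoter windows of RefSeq (assembly GRCm38.p6, 250 bases before to 50 bases after a gene's start) were searched on both strands for GAGGAAG, the core recognised by PU.1. A window was at hand for 28 of the 37 members. The letters occurred in 13 of these 28 genes and in 40% of their 35 windows, against 13.6% of all 32851 windows. They were found in 4 of the 10 members with a window that were called lower at 3 hr in control slices and in 9 of the 17 that were not called. A second search, for the ETS-IRF composite element, matched only the window of Cd68 among the members, or 2.86% of member windows against 2.72% of all windows. Cd68 was not among the members with the PU.1 core, so no member window held both motifs. Below are 30 bases around the match in 3 members called lower at 3 hr (P2ry13, Inpp5d, Ctss) and in 3 members that were not called in control slices (C1qc, Trem2, Laptm5), each on the strand of its gene, with the PU.1 core or its reverse complement in capitals.
P2ry13: caaggggaaatGAGGAAGgaaaagcagtat
Inpp5d: gtttctataatGAGGAAGttctgtgcagct
Ctss: atgaaagttcaCTTCCTCattgtggatgct
C1qc: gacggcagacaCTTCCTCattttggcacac
Trem2: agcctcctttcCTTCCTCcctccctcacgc
Laptm5: gcagcctgtggCTTCCTCttttttgttctg

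These stretches lie at chr3:59210912-59210941 on the minus strand for P2ry13, chr1:87620281-87620310 on the plus strand for Inpp5d and chr3:95526774-95526803 on the plus strand for Ctss. Those of the genes that were not called lie at chr4:136893090-136893119 on the minus strand for C1qc, chr17:48346349-48346378 on the plus strand for Trem2 and chr4:130913266-130913295 on the plus strand for Laptm5. Both kinds of member carried the letters within a short distance of the start, from 194 bases upstream in C1qc to 1 base upstream in Ctss. A match of letters is not evidence that a factor was bound.

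The clearest pattern among the members was a lower level of the sensing receptors at 3 hr than at 1 hr, in both control and LTP slices, beside smaller differences in C1q. P2ry12 was 2.7-fold lower at 3 hr in control slices and P2ry13 3.8-fold lower, while P2ry6, the remaining nucleotide receptor, stood at a log2 fold change of 0.024 and was not called. Of the C1q chains, C1qa was called lower, by 1.37-fold, whereas C1qb was 1.13-fold and C1qc 1.06-fold lower and neither was called. Over the 20 alternative analyses given at the end, Gpr34 had log2 values of -1.06 to -0.63 in control slices. Those of C1qa were -0.61 to -0.33. In LTP slices these ranges overlapped, at -0.89 to -0.42 for Gpr34 and -0.66 to -0.46 for C1qa. P2ry12 stayed at -1.14 or lower in both slice types. GC content was 37.1% to 55.9% in the sensing receptors and 57.4% to 59.5% in the C1q chains, and its part was not tested. Cd14, the co-receptor for bacterial lipopolysaccharide, and Irf8 were the only members called higher. In control slices 16 of the 37 members were called, 14 lower and 2 higher, against 32.8% of the 18584 genes tested, of which 16.8% were called lower and 16.1% higher. In LTP slices 19 were called, 17 lower and 2 higher, against 35.9% of all genes, with 17.3% lower and 18.6% higher. With offsets for GC content and length, 1786 of 4859 calls over all genes in control slices were higher, against 2987 of 6102 without them. The share of members called higher was thus below the share over all genes in each comparison, and the share called lower was above it. The median log2 fold change of the members was -0.18 in control slices and -0.27 in LTP slices, beside -0.019 and 9.5e-05 over all genes tested.

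The 14 lower and 2 higher calls in control slices were also made, in the same direction, in LTP slices. These comparisons share no library, but they come from the same animals and the same model. Fcgr3, Fcer1g and Ptprc were called in LTP slices and not in control slices, and 18 members were called in neither. For these 3 genes the difference between the comparisons was not called, with the adjusted p of the interaction at 0.969 for Fcgr3, 0.998 for Fcer1g and 0.856 for Ptprc in the edgeR model. In 15 members all 6 libraries of 3 hr lay below all 5 libraries of 1 hr, against 13.4% of all genes, and in 2 members, Cd14 and Irf8, they lay above, against 14.3%. The other 20 members overlapped between the time points.

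**Figure D1:**
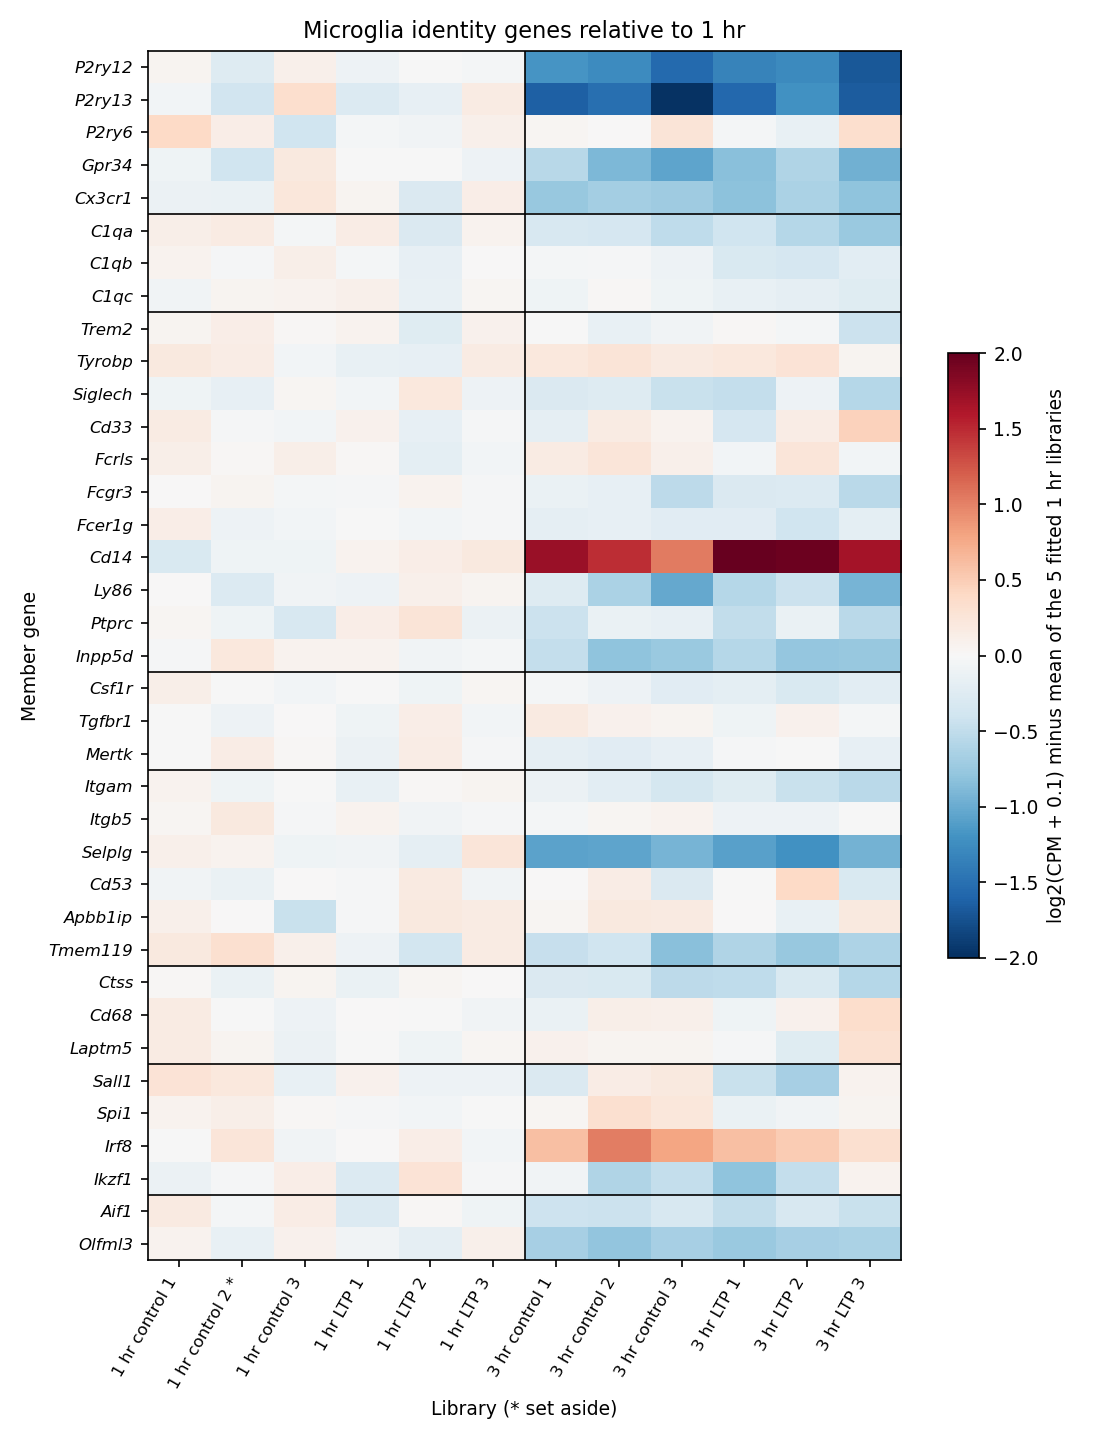
Each row is a member and each column a library, with colour giving log2(CPM + 0.1) minus the mean of the 5 fitted 1 hr libraries; black lines divide the role groups and the time points, and the star marks the library set aside. The deepest blue at 3 hr is in the rows of P2ry12, P2ry13, Selplg, Gpr34, Cx3cr1 and Olfml3, and the red rows are those of Cd14 and Irf8.

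P2ry12 (ENSMUSG00000036353, chr3:59216272-59262871, minus strand), the ADP receptor by which microglial processes find sites of ATP release, had the highest mean level per kilobase of exon among the sensing receptors, at 15.4 CPM per kilobase in the 1 hr controls and 5.82 in the 3 hr controls. It stood at 38.6 and 39.9 CPM in 1 hr control 1 and 3, at 34.7, 36.8 and 36.1 CPM in the 1 hr LTP libraries, at 16.3, 15.5 and 12.6 CPM in the 3 hr controls and at 14.6, 15.4 and 11.4 CPM in the 3 hr LTP libraries. Every 3 hr library was below every 1 hr library, and the library set aside, at 31 CPM, lay between the ranges. The log2 fold change from 1 hr to 3 hr was -1.44 ± 0.12 in control slices (adjusted p = 1.78e-05, edgeR) and -1.39 ± 0.111 in LTP slices (adjusted p = 4.63e-06, edgeR).

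P2ry13 (ENSMUSG00000036362, chr3:59207892-59210882, minus strand), a second ADP receptor next to P2ry12 on the chromosome, had 6.92 and 9.02 CPM in the 1 hr controls, 5.88, 6.35 and 8.06 CPM in 1 hr LTP, 2.23, 2.46 and 1.75 CPM in the 3 hr controls and 2.34, 3.05 and 2.19 CPM in 3 hr LTP. The time points did not overlap, and the library set aside had 5.44 CPM, again between them. The difference was -1.93 ± 0.192 in control slices (adjusted p = 4.12e-05, edgeR) and -1.43 ± 0.177 in LTP slices (adjusted p = 8.48e-05, edgeR), the lowest log2 values of any member in each comparison. Both genes lie inside the body of Med12l, a Mediator subunit gene on the plus strand (chr3:59005825-59318682), and the sources used here do not say whether counting kept strand. Med12l was at 87.9 to 93.8 CPM at 1 hr. Its own difference between times was -0.30 ± 0.072 in control slices (adjusted p = 0.00705, edgeR) and 0.036 ± 0.0647 in LTP slices, where it was not called, and its part in the values of P2ry12 and P2ry13 was not tested.

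Gpr34 (ENSMUSG00000040229, chrX:13632089-13640858), a lysophosphatidylserine receptor, was at 9.61 and 11.6 CPM in the 1 hr controls, 10.1, 10.1 and 9.5 CPM in 1 hr LTP, 6.88, 5.38 and 4.85 CPM in the 3 hr controls and 5.66, 6.68 and 5.17 CPM in 3 hr LTP. It fell without overlap, by 0.93 on the log2 scale in control slices and by 0.78 in LTP slices (adjusted p = 0.00058 and 0.000739, edgeR), and the library set aside had 7.72 CPM. The gene lies within Cask, which is transcribed from the opposite strand.

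Cx3cr1 (ENSMUSG00000052336, minus strand of chromosome 9), the fractalkine receptor, had 28.1 and 36 CPM in the 1 hr controls, 31.7, 25 and 33.5 CPM in 1 hr LTP, 18.1, 19.1 and 18.7 CPM in the 3 hr controls and 17.2, 19.6 and 17.5 CPM in 3 hr LTP. All 3 hr libraries were lower than all 1 hr libraries, including the one set aside at 27.8 CPM. Its log2 fold change was -0.81 ± 0.124 in control slices and -0.75 ± 0.114 in LTP slices (adjusted p = 0.000457 and 0.000306, edgeR). In bulk tissue, fewer microglia and less of an RNA in each microglial cell cannot be told apart for a single member that was lower. Over all 37 members, 28 log2 values in control slices were below 0 and 9 above, with Aif1 at -0.59 and Tmem119 at -0.74. Those of Tyrobp (0.11), Fcrls (0.021), Laptm5 (0.0092) and Cd68 (-0.037) were near 0 and not called. With offsets for GC content and length, however, Laptm5 was called lower at -0.27. In LTP slices Tyrobp stood at 0.21 and was called under 3 alternative analyses.

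P2ry6, the UDP receptor linked to phagocytosis, was the exception among the sensing receptors. It had 3.77 and 2.13 CPM in the 1 hr controls, 2.75, 2.69 and 3.03 CPM in 1 hr LTP, 2.9, 2.85 and 3.39 CPM in the 3 hr controls and 2.75, 2.53 and 3.59 CPM in 3 hr LTP. These ranges overlap throughout, and the 1 hr controls alone spanned more than all the 3 hr libraries, with 3.1 CPM in the library set aside. Its log2 fold change was 0.024 in control slices, with a 95% interval from -0.44 to 0.49, and 0.041 in LTP slices, with an interval from -0.38 to 0.47.

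**Figure D2:**
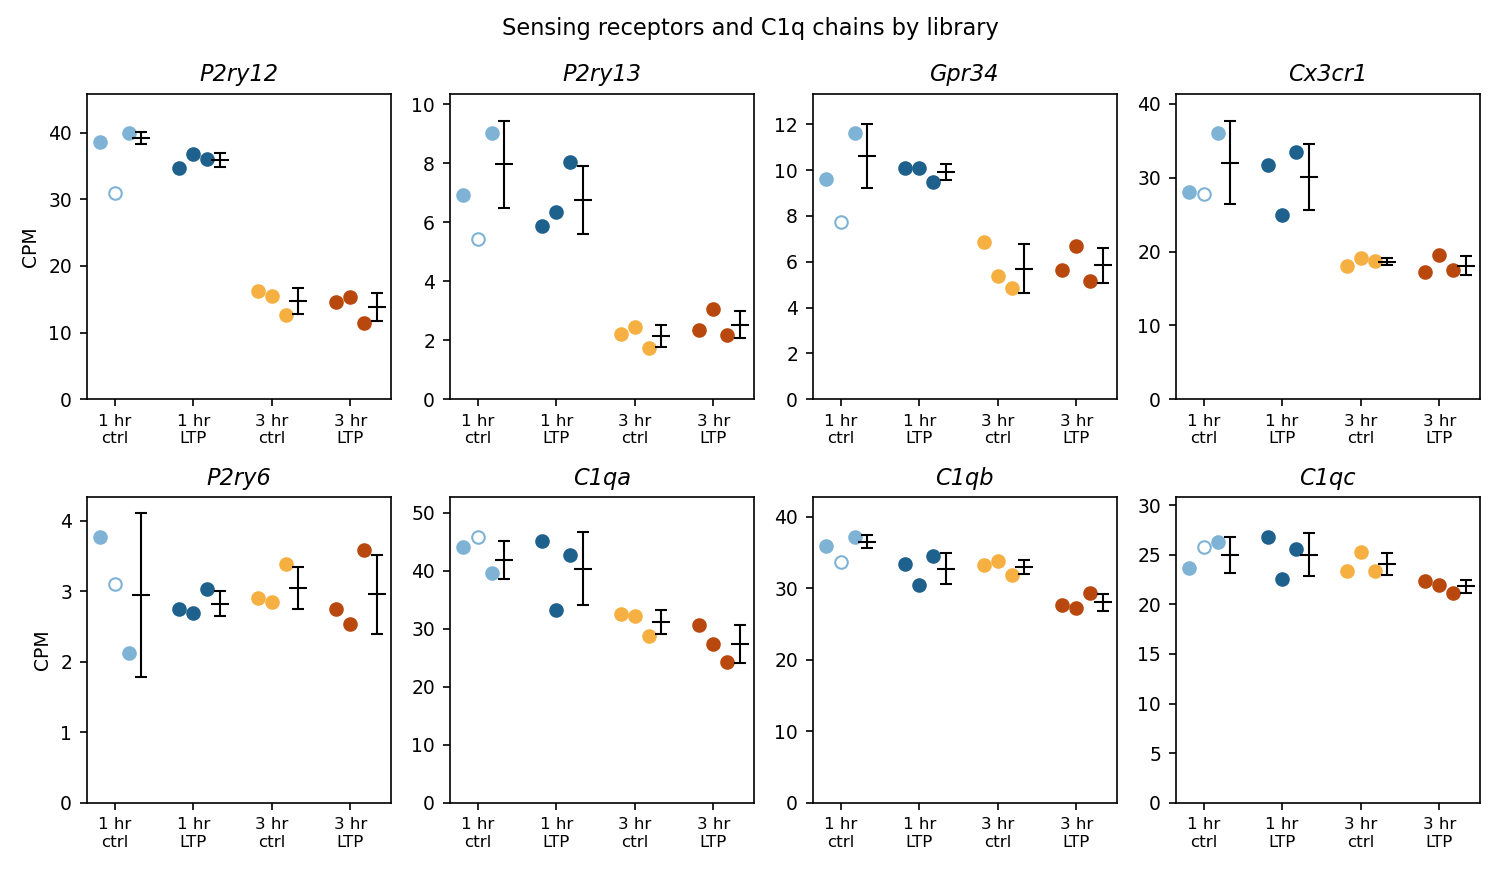
CPM of the 5 sensing receptors and the 3 C1q chains in each library, with black bars for the mean and SD of a group (n = 2 for 1 hr control, otherwise 3) and an open circle for the library set aside. P2ry12, P2ry13, Gpr34 and Cx3cr1 separate by time, while P2ry6, C1qb and C1qc overlap.

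The C1q chains are encoded side by side on the minus strand of chromosome 4 (C1qb at chr4:136880129-136886187, C1qc at chr4:136889804-136893065 and C1qa at chr4:136895917-136898803). C1qa had 44.1 and 39.5 CPM in the 1 hr controls, 45.1, 33.2 and 42.6 CPM in 1 hr LTP, 32.5, 32.1 and 28.7 CPM in the 3 hr controls and 30.7, 27.3 and 24.2 CPM in 3 hr LTP. The time points were separate but close, with 33.2 CPM in 1 hr LTP 2 next to 32.5 CPM in 3 hr control 1, and the library set aside had 45.8 CPM. C1qa was called lower in control slices (-0.45 ± 0.124, adjusted p = 0.0135, edgeR) and in LTP slices (-0.57 ± 0.112, adjusted p = 0.00162, edgeR). Without 1 hr control 1 the control value was -0.33 with an adjusted p of 0.161 (edgeR), and the call was lost.

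C1qb had 35.9 and 37.2 CPM in the 1 hr controls, 33.4, 30.4 and 34.5 CPM in 1 hr LTP, 33.3, 33.8 and 31.9 CPM in the 3 hr controls and 27.6, 27.2 and 29.4 CPM in 3 hr LTP. The 3 hr controls fell inside the 1 hr range, and the 3 hr LTP libraries were below it, with 33.7 CPM in the library set aside. Its log2 fold changes of -0.18 ± 0.0777 in control slices and -0.24 ± 0.0704 in LTP slices had adjusted p values of 0.0967 and 0.016 (edgeR) but stayed under the fold change threshold. In LTP slices C1qb was called lower when 1 hr LTP 2 or 3 hr LTP 3 was left out.

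C1qc was the steadiest chain, with 23.7 and 26.3 CPM in the 1 hr controls, 26.8, 22.6 and 25.6 CPM in 1 hr LTP, 23.4, 25.3 and 23.4 CPM in the 3 hr controls and 22.4, 22 and 21.1 CPM in 3 hr LTP. The time points overlapped, and the library set aside had 25.8 CPM. Its difference was -0.088 ± 0.09 in control slices and -0.21 ± 0.081 in LTP slices, and neither was called (edgeR). With offsets for GC content and exonic length, however, C1qc reached -0.32 in control slices and -0.38 in LTP slices and was called in both, with adjusted p of 0.0177 and 0.00295 (edgeR).

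Receptor and complement transcripts were also set side by side within each library. The summed level of the 5 sensing receptors was 81 to 98.7 CPM at 1 hr and 39.8 to 47.2 CPM at 3 hr, with 75.1 CPM in the library set aside. That of the C1q chains was 86.2 to 105 CPM at 1 hr and 74.7 to 91.2 CPM at 3 hr, with 105 CPM in the library set aside. Per kilobase of exon, P2ry12 stood at 0.443 to 0.517 of the C1qb level in the 5 fitted 1 hr libraries and at 0.166 to 0.242 in the 6 libraries of 3 hr, with 0.393 in the library set aside. This ratio shows that the 2 transcripts changed unequally, and does not show that C1qb did not change.

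Among 11 immune receptors, adaptors and their regulators, 3 were called lower and 1 higher in control slices, and 6 lower and 1 higher in LTP slices. The 4 of 11 called in control slices stand against 32.8% of all genes, and the 7 of 11 in LTP slices against 35.9%. Cd14 had 15.3 and 17.8 CPM in the 1 hr controls, 20, 20.8 and 21.8 CPM in 1 hr LTP, 63.2, 52.9 and 39.1 CPM in the 3 hr controls and 89.9, 74.4 and 60.5 CPM in 3 hr LTP. Every 3 hr library exceeded every 1 hr library, and the library set aside was at 17.9 CPM. Cd14 rose by 1.61 ± 0.187 on the log2 scale in control slices, or 3.06-fold (adjusted p = 8.39e-05, edgeR), and by 1.82 ± 0.161 in LTP slices, or 3.54-fold (adjusted p = 9.76e-06, edgeR).

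Inpp5d, which encodes the inositol phosphatase SHIP1 that dampens immune receptor signalling, had 10.9 and 11.6 CPM in the 1 hr controls, 11.6, 10.5 and 10.8 CPM in 1 hr LTP, 7.96, 6.29 and 6.56 CPM in the 3 hr controls and 7.45, 6.42 and 6.54 CPM in 3 hr LTP. It fell by 0.73 in control slices and by 0.71 in LTP slices on the log2 scale (adjusted p = 0.000588 and 0.000273, edgeR), with no overlap, and the library set aside had 12.8 CPM. Ly86, which encodes MD-1, the partner of the receptor RP105, had 10.3 and 9.69 CPM in the 1 hr controls, 9.52, 10.9 and 10.6 CPM in 1 hr LTP, 8.46, 6.55 and 4.94 CPM in the 3 hr controls and 6.86, 7.56 and 5.33 CPM in 3 hr LTP. Its libraries did not overlap between times, but the 3 hr controls spread widely, and the library set aside, at 8.42 CPM, was inside the 3 hr range. Ly86 was lower, at -0.62 ± 0.181 in control slices (adjusted p = 0.0203, edgeR) and at -0.67 ± 0.165 in LTP slices (adjusted p = 0.00667, edgeR), and the control call was lost without 1 hr control 1, at -0.54 with an adjusted p of 0.131.

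Siglech, a sialic acid binding lectin specific to microglia within the brain, had 16 and 17.5 CPM in the 1 hr controls, 16.4, 19.7 and 15.9 CPM in 1 hr LTP, 14, 14.3 and 12.5 CPM in the 3 hr controls and 12.2, 15.8 and 11.4 CPM in 3 hr LTP. The time points were all but touching, at 15.9 and 15.8 CPM, and the library set aside had 15.2 CPM, inside the 3 hr range. The values were -0.33 ± 0.133 in control slices (adjusted p = 0.0734, edgeR) and -0.41 ± 0.12 in LTP slices (adjusted p = 0.016, edgeR), and the control call was lost in 10 of the 20 alternative analyses and the LTP call in 1, without 1 hr LTP 2.

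Fc receptor genes differed less. Fcgr3 was at 9.12 to 9.81 CPM at 1 hr and 6.38 to 8.48 CPM at 3 hr, and Fcer1g, the signalling chain shared by Fc receptors, was at 7.65 to 8.75 CPM and 6.07 to 7.1 CPM. In the edgeR test each was called lower in LTP slices and not in control slices, at -0.39 for Fcgr3 and -0.27 for Fcer1g, and the call of Fcer1g was lost in 12 of 20 alternatives. That of Fcgr3 was lost with GC content and length offsets, at -0.22, and in control slices Fcgr3 was called by limma-voom and with 1 hr control 2 included, and Fcer1g with upper quartile scaling. Ptprc, the pan-leukocyte phosphatase CD45, was lower in LTP slices at -0.50 ± 0.141 and stood at -0.14 ± 0.157, not called, in control slices. Trem2, a lipid-sensing receptor, its adaptor Tyrobp, the inhibitory lectin Cd33 and the Fc receptor-like gene Fcrls overlapped between time points, and their log2 fold changes in control slices ran from -0.15 for Trem2 to 0.11 for Tyrobp.

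None of the 3 growth factor, TGF-beta and apoptotic cell receptors was called in either slice type (edgeR), against 32.8% and 35.9% of all genes. Csf1r, on whose signalling microglia depend for survival, was at 68.3 to 78.9 CPM at 1 hr and 58.9 to 70.3 CPM at 3 hr, with -0.18 ± 0.0772 in control slices and -0.23 ± 0.0695 in LTP slices. With GC content and length offsets Csf1r was called lower in both, at -0.38 and -0.42. Mertk, a receptor for apoptotic cells that astrocytes also express, had 54.5 and 55.7 CPM in the 1 hr controls, 50.5, 60.8 and 54 CPM in 1 hr LTP, 48.3, 46.8 and 49.3 CPM in the 3 hr controls and 54.3, 54.8 and 48.9 CPM in 3 hr LTP. Its 3 hr controls lay below every 1 hr library, the one set aside at 61 CPM included, but the difference of -0.22 ± 0.0834 was under the fold threshold. Tgfbr1, also not restricted to microglia, was at 52 to 60.6 CPM at 1 hr and 51.6 to 62.1 CPM at 3 hr.

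Of 6 adhesion and surface proteins, 3 were called lower in both slice types, against 16.8% of all genes in control slices and 17.3% in LTP slices. Selplg, which encodes the selectin ligand PSGL-1, had 15 and 13.2 CPM in the 1 hr controls, 13.4, 12.3 and 16.5 CPM in 1 hr LTP, 6.6, 6.71 and 7.32 CPM in the 3 hr controls and 6.54, 5.98 and 7.2 CPM in 3 hr LTP. The gap between the time points was wide, and the library set aside had 14.7 CPM. Selplg fell by 1.06 in control slices and by 1.12 in LTP slices on the log2 scale (adjusted p = 0.000105 and 3.2e-05, edgeR).

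Tmem119, a microglia-specific membrane protein, had 6.79 and 6.35 CPM in the 1 hr controls, 5.56, 4.61 and 6.7 CPM in 1 hr LTP, 4.28, 4.46 and 3.29 CPM in the 3 hr controls and 3.88, 3.49 and 3.85 CPM in 3 hr LTP. It was lower at 3 hr in all libraries, at -0.74 ± 0.163 in control slices (adjusted p = 0.00416, edgeR) and -0.61 ± 0.15 in LTP slices (adjusted p = 0.00658, edgeR), and the library set aside had the highest level at 7.45 CPM. Itgam, which encodes CD11b, a chain of complement receptor 3, had 21.9 and 20.8 CPM in the 1 hr controls, 18.8, 21.1 and 21.7 CPM in 1 hr LTP, 19.2, 18 and 16.3 CPM in the 3 hr controls and 17.6, 15.2 and 14.3 CPM in 3 hr LTP. Its time points overlapped, at 18.8 CPM in 1 hr LTP 1 and 19.2 CPM in 3 hr control 1, and the library set aside had 19.7 CPM. Itgam was called at -0.29 ± 0.106 in control slices (adjusted p = 0.0515, edgeR) and -0.40 ± 0.0965 in LTP slices (adjusted p = 0.0054, edgeR). The control call was lost in 7 of 20 alternatives, and 68.7% of its exonic bases are shared with another gene model in GENCODE M21, for which no counts were used here. Whether reads were divided between the models is not known. Itgb5, an integrin chain, Cd53, a tetraspanin, and Apbb1ip, which encodes the integrin activator RIAM, were not called, with -0.0057, -0.028 and 0.28 in control slices. With GC content and length offsets Itgb5 was called lower, at -0.34 in control slices and -0.38 in LTP slices, and Cd53 higher, at 0.29 and 0.37.

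Ctss, the lysosomal protease cathepsin S, had the highest level per kilobase of exon of any member, with a mean of 66 CPM per kilobase in the 1 hr controls. It had 88.2 and 91 CPM in the 1 hr controls, 79.5, 89.6 and 87.9 CPM in 1 hr LTP, 71.4, 70.2 and 60.3 CPM in the 3 hr controls and 61.1, 70.6 and 58.7 CPM in 3 hr LTP. The time points did not overlap, and the library set aside, at 79.4 CPM, lay between them. Its difference of -0.44 ± 0.0913 in control slices and -0.45 ± 0.0826 in LTP slices was called (adjusted p = 0.00293 and 0.00105, edgeR), but with GC content and length offsets it shrank to -0.16 and -0.12 and was not called. Cd68, a lysosomal glycoprotein of macrophages, and Laptm5, a lysosomal membrane protein of blood lineages, overlapped between the time points at -0.037 and 0.0092 in control slices.

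Among 4 transcription factors 1, Irf8, was called in each slice type, against 32.8% of all genes in control slices and 35.9% in LTP slices. It had 5.11 and 4.88 CPM in the 1 hr controls, 5.13, 5.62 and 4.94 CPM in 1 hr LTP, 7.87, 10.5 and 8.93 CPM in the 3 hr controls and 7.82, 7.36 and 6.46 CPM in 3 hr LTP. All 3 hr libraries were above all 1 hr libraries, and the library set aside had 6.06 CPM, between them. Irf8 rose by 0.83 ± 0.136 in control slices (adjusted p = 0.000678, edgeR) and by 0.45 ± 0.12 in LTP slices (adjusted p = 0.0105, edgeR), and the difference between these rises was not called (-0.38 ± 0.181, adjusted p = 0.76, edgeR). Spi1 was at 5.27 to 5.78 CPM at 1 hr and 5.02 to 6.88 CPM at 3 hr, with 0.12 in control slices, and became -0.29 and called with GC content and length offsets. Sall1, which keeps microglia distinct from other macrophages, stood at 5.02 to 6.74 CPM and 3.49 to 6.38 CPM, and Ikzf1, a zinc finger factor of blood lineages, at 0.875 to 1.32 CPM and 0.568 to 1.13 CPM.

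Aif1, which encodes the actin binding protein IBA1 used to stain microglia, had 4.13 and 4.03 CPM in the 1 hr controls, 2.99, 3.69 and 3.43 CPM in 1 hr LTP, 2.7, 2.66 and 2.9 CPM in the 3 hr controls and 2.54, 2.9 and 2.64 CPM in 3 hr LTP. The 3 hr libraries were all lower, with 3.54 CPM in the library set aside. The differences were -0.59 ± 0.139 in control slices (adjusted p = 0.00605, edgeR) and -0.34 ± 0.128 in LTP slices (adjusted p = 0.0521, edgeR), the latter lost in 7 of 20 alternatives. Olfml3, a secreted matrix protein, had 19.4 and 19.7 CPM in the 1 hr controls, 17.6, 16.3 and 19.9 CPM in 1 hr LTP, 11.7, 10.7 and 11.6 CPM in the 3 hr controls and 11, 11.7 and 11.9 CPM in 3 hr LTP. It was separate at every library, the one set aside included at 16.7 CPM, and fell by 0.82 in control slices and by 0.65 in LTP slices (adjusted p = 8.69e-05 and 0.000137, edgeR).

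**Figure D3:**
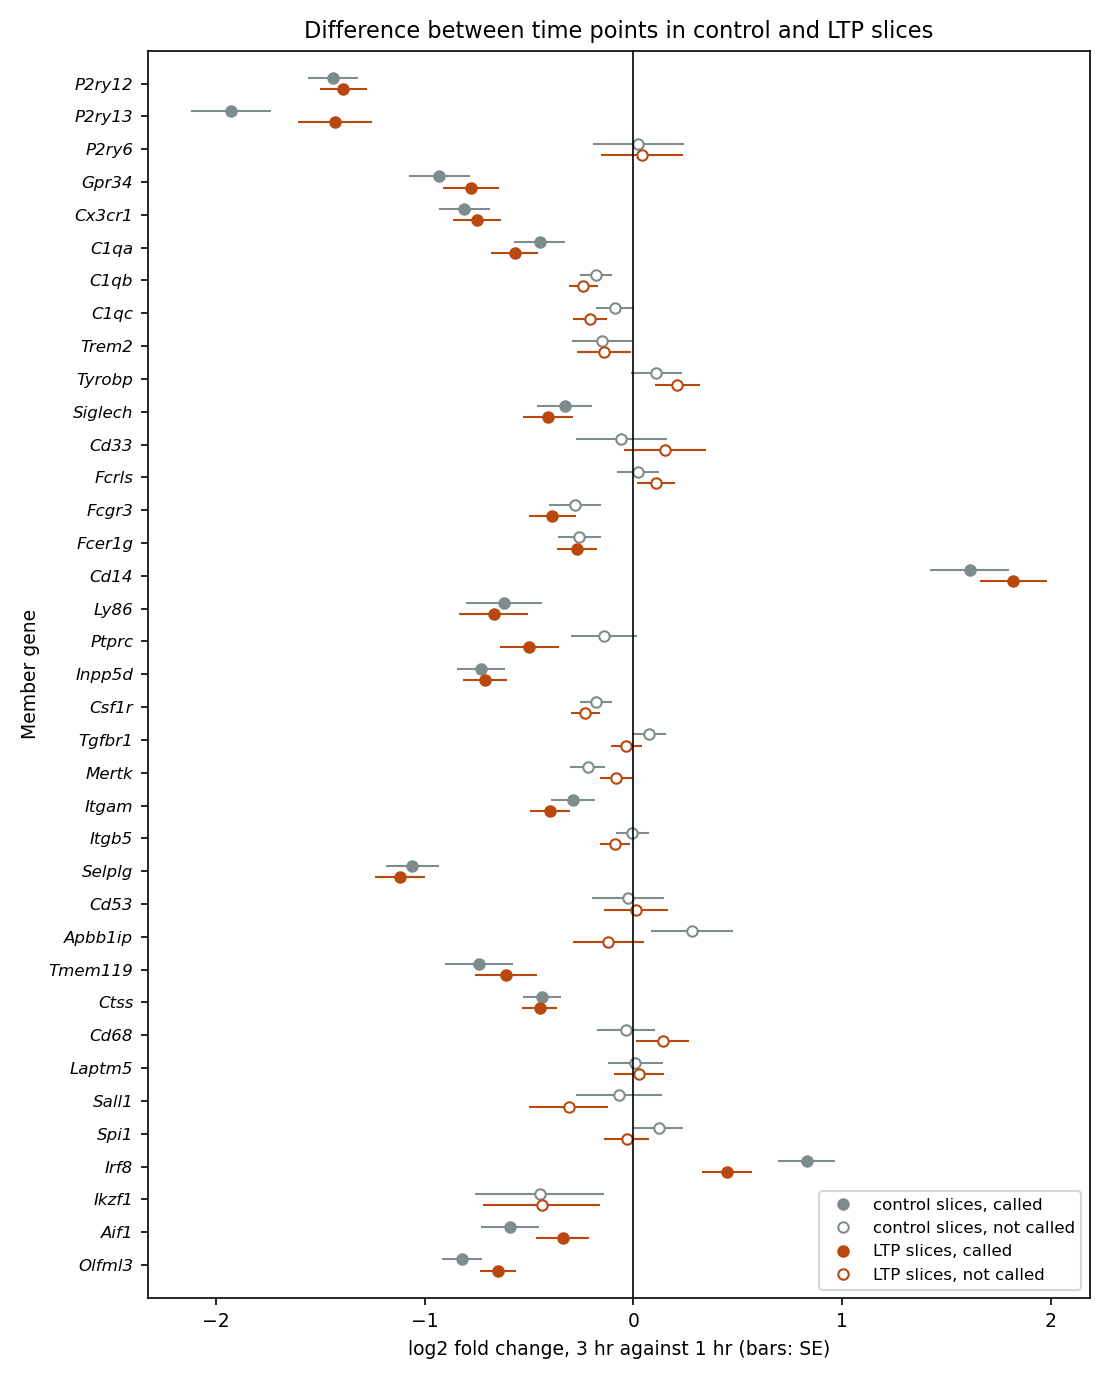
Log2 fold change of 3 hr against 1 hr for each member, in control slices (grey) and LTP slices (orange), with SE bars and filled points for called members. Of the 37 members, 14 were lower and 2 higher in both slice types, and P2ry13 lay farthest to the left and Cd14 farthest to the right.

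Whether LTP altered these genes was asked at each time point. At 1 hr 0 of the 37 members were called by edgeR, by DESeq2 or by limma-voom, against 0.789% of 17736 genes by edgeR, and 1 member, Cd14, had an unadjusted p under 0.05. At 3 hr 0 of 37 were called by edgeR and by limma-voom, and 1, Cd14, by DESeq2, against 6.6% of 17508 genes by edgeR. The members with an unadjusted p under 0.05 at 3 hr were C1qb, Cd14 and Irf8. The median log2 fold change of the members was -0.045 at 1 hr and -0.054 at 3 hr, beside -0.001 and -0.0025 over all genes.

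Cd14 had the highest log2 fold change of any member with LTP at both time points. It was 0.35 ± 0.0985 higher in LTP slices at 1 hr and 0.55 ± 0.182 higher at 3 hr on the log2 scale, with adjusted p values of 0.25 and 0.135 (edgeR). At 3 hr the LTP library exceeded the control of the same animal in 3 of 3 animals, with 89.9 against 63.2 CPM, 74.4 against 52.9 CPM and 60.5 against 39.1 CPM. The groups as such overlapped, since 60.5 CPM in 3 hr LTP 3 was below 63.2 CPM in 3 hr control 1. With the animal as a replicate block the 3 hr difference was 0.56 with an adjusted p of 0.00302 (edgeR), and Cd14 was called.

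C1qb at 3 hr was lower in all 3 LTP libraries (27.6, 27.2 and 29.4 CPM) than in all 3 controls (33.3, 33.8 and 31.9 CPM). Its log2 fold change was -0.22 ± 0.0683 with an adjusted p of 0.119 (edgeR), and 0.111 with the replicate block, so it was not called; its fold change of 1.16 was also under the threshold. C1qc at 3 hr was likewise lower in all 3 LTP libraries (22.4, 22 and 21.1 CPM) than in all 3 controls (23.4, 25.3 and 23.4 CPM), with -0.12 ± 0.072 and an adjusted p of 0.376 (edgeR). C1qa was lower in the LTP library of 3 of 3 animals, with 30.7 against 32.5 CPM, 27.3 against 32.1 CPM and 24.2 against 28.7 CPM. However, its groups overlapped and the difference was -0.17 ± 0.0994 (adjusted p = 0.385, edgeR). Values below 0 were not particular to C1q. With LTP at 3 hr they were found in 27 of the 37 members, against 10 above 0. Among 21 other microglia-enriched genes 15 were below 0 and 6 above. The C1q chains together summed to 84 to 91.2 CPM in the 3 hr controls and 74.7 to 80.7 CPM in 3 hr LTP, without overlap. How many of all genes separate between the 3 hr LTP and 3 hr control libraries was not counted, so such a separation is not read as a result. At 1 hr the LTP difference was -0.041 for C1qa, -0.15 for C1qb and 0.0095 for C1qc, and none was called (edgeR).

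For Irf8 the 3 hr LTP libraries (7.82, 7.36 and 6.46 CPM) were all below the 3 hr controls (7.87, 10.5 and 8.93 CPM), with -0.32 ± 0.124 and an adjusted p of 0.198 (edgeR). The groups did not overlap, though 7.82 CPM in LTP stood next to 7.87 CPM in the controls, and Irf8 was not called. For this separation, too, the share over all genes was not counted.

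For P2ry12 the LTP difference was -0.12 ± 0.0772 at 1 hr and -0.086 ± 0.133 at 3 hr, with 95% intervals from -0.28 to 0.046 and from -0.39 to 0.21. All 5 sensing receptors had log2 values below 0 at 1 hr, from -0.23 to -0.049, and so had 7 of 7 endothelial and 6 of 6 mural markers, with none of these called by edgeR. At 3 hr Med12l was called higher with LTP, at 0.34 ± 0.0712 (adjusted p = 0.0372, edgeR). A change of the size seen between time points in P2ry12 lies outside the intervals for P2ry12. Over all members the values ran from -0.27 to 0.35 at 1 hr and from -0.35 to 0.55 at 3 hr. The difference between the LTP effects at 3 hr and 1 hr was called for 0 of 37 members by edgeR, DESeq2 or limma-voom, with 0 at an unadjusted p under 0.05 by edgeR, against 0.0592% of all genes. The lowest adjusted p among the members in that test was 0.76 (edgeR).

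**Figure D4:**
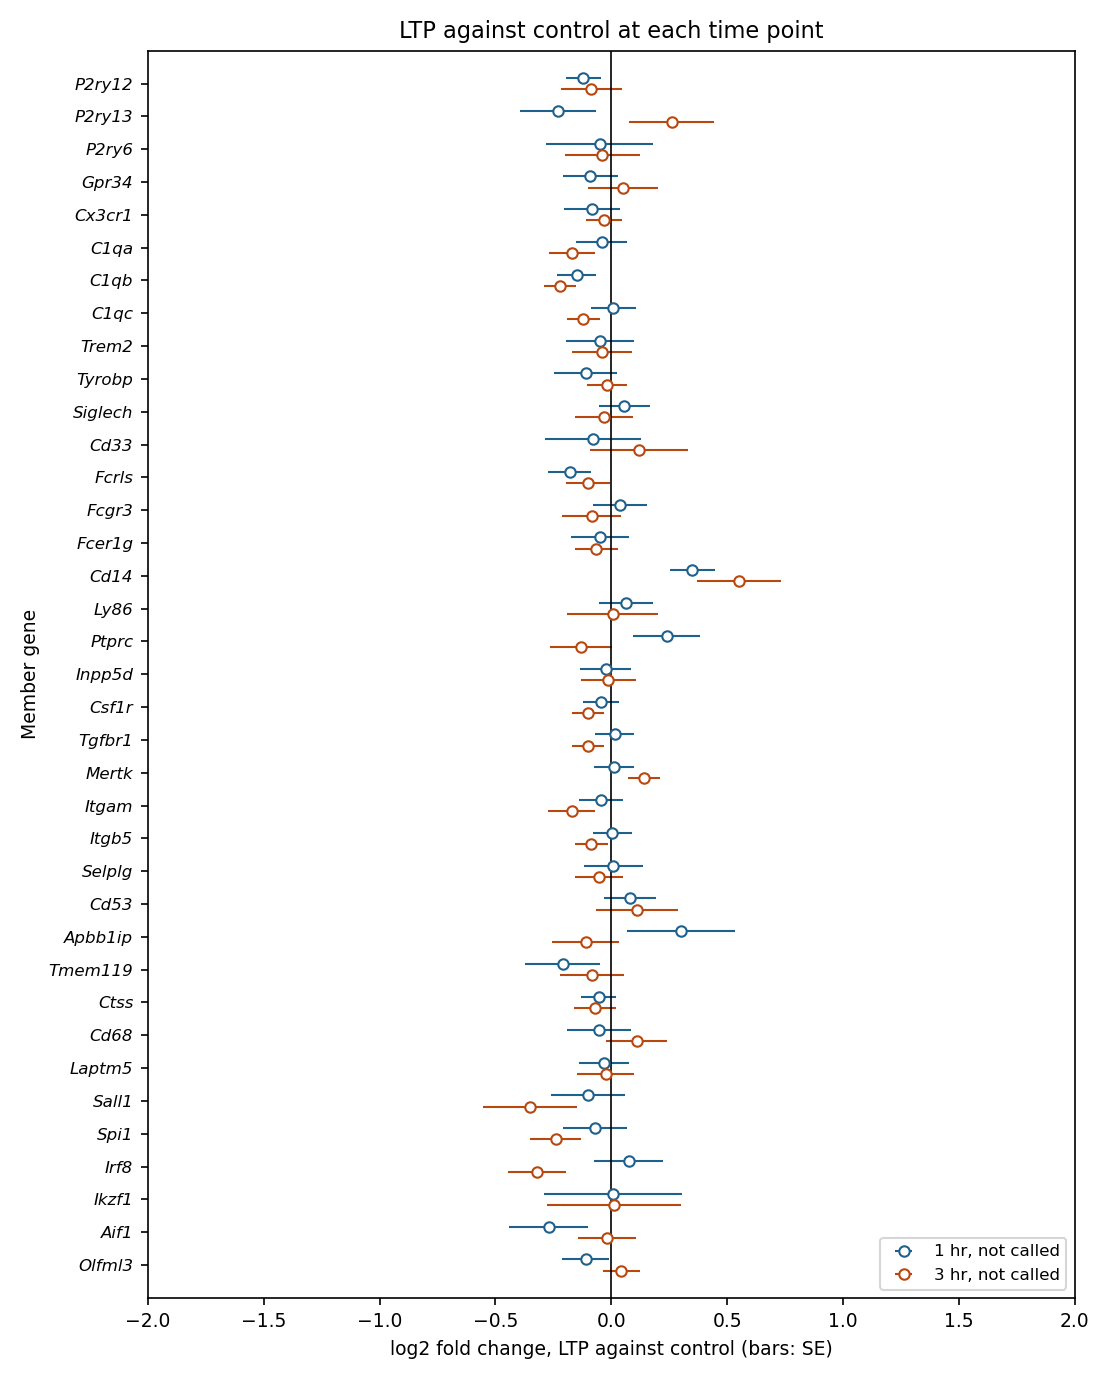
Log2 fold change of LTP against control for each member at 1 hr (blue) and 3 hr (orange), with SE bars. All values lie between -0.35 and 0.55, the highest being Cd14 at 3 hr.

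Other genes of the same pathways were taken from lists and are given by counts. Of 21 other complement genes, 19 were tested and 5 were called in control slices between 1 hr and 3 hr, against 32.8% of all genes, namely C4b, the source of the early C4 fragments, higher at 0.37 ± 0.128, and 4 genes lower, Cd55, Cr1l and Itgb2 among them. Cd55, which limits complement activation, stood at -0.41, Itgb2, the partner chain of Itgam, at -0.41, and Cr1l, another regulator, at -0.30. In LTP slices 7 of 19 were called between the time points, 2 higher and 5 lower, against 35.9% of all genes. With LTP at 3 hr, Sez6, a neuronal protein with complement control domains, was the only one of these called, at 0.58 ± 0.109 (adjusted p = 0.0264, edgeR).

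Among 10 ligands of the member receptors, 4 were higher and 1 lower at 3 hr in control slices, against 16.1% higher and 16.8% lower over all genes, and 5 were higher and 0 lower in LTP slices, against 18.6% and 17.3%. Cx3cl1, which encodes the ligand of CX3CR1, was higher by 0.39 ± 0.1 (adjusted p = 0.00958, edgeR), and Il34, a ligand of CSF1R, by 0.36 ± 0.127. Cd47, which was on the list although its receptor SIRP-alpha is not a member, was higher by 0.33 ± 0.0746. Csf1, the other ligand of CSF1R, was higher by 0.38 ± 0.138, and Tgfb2 was lower at -0.39 ± 0.0849. No ligand was called with LTP at either time by edgeR, and 0 had an unadjusted p under 0.05.

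Of 22 other microglia-enriched genes, 21 were tested, and 8 were lower and 4 higher at 3 hr in control slices, against 16.8% and 16.1% of all genes. In LTP slices 10 were lower and 5 higher, against 17.3% and 18.6%. The lower genes with the smallest p were Bin2 at -1.10 ± 0.143, Cd84 at -1.06 ± 0.173 and Havcr2, an immune checkpoint receptor, at -0.94 ± 0.18. The higher ones were led by Syk, the kinase downstream of TYROBP, at 0.52 ± 0.113, and included Crybb1 at 0.74 ± 0.241. Of 24 microglial activation genes, 11 were higher and 1 lower in control slices and 12 higher and 2 lower in LTP slices, against the same shares over all genes. Among those called in control slices were Socs3 at 1.14 ± 0.0998, the chemokines Ccl2 at 1.87 ± 0.196 and Ccl4 at 1.58 ± 0.174, and Nfkbia, the NF-kappaB inhibitor, at 0.96 ± 0.106 higher, and Cd52 at -0.97 ± 0.315 lower. Il1b, the cytokine interleukin 1 beta, was the 1 gene of 23 activation genes tested that was called with LTP at 3 hr, against 6.6% of all genes, at 0.93 ± 0.224 (adjusted p = 0.0583, edgeR), and it was also higher at 3 hr in control slices by 2.14 ± 0.282. Of the 23, 18 had values below 0 with LTP at 3 hr and 5 above, with a median of -0.14. Several of these genes are expressed by other cells of the slice, and Ccl2 and Socs3 are not microglia-specific.

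Some markers of other cell types differed between the time points as well. In control slices, where 16.8% of all genes were called lower and 16.1% higher, 4 of 7 endothelial markers and 4 of 6 mural markers were called lower. In LTP slices, with 17.3% lower and 18.6% higher over all genes, 2 endothelial markers were lower and 2 higher, and 2 mural markers were lower and 1 higher. Over both slice types the endothelial sum was 107 to 133 CPM at 1 hr and 99.1 to 112 CPM at 3 hr, and the mural sum was 163 to 190 CPM and 137 to 145 CPM. Among neuronal markers 3 of 10 were lower, and among oligodendrocyte markers 3 of 7 were higher, in each slice type. Of 9 astrocyte markers, 1 was higher and 1 lower in control slices, and 0 were higher and 1 lower in LTP slices. The astrocyte sums overlapped, at 5608 to 5967 CPM at 1 hr and 5303 to 6130 CPM at 3 hr. Of 4 oligodendrocyte precursor markers, 1 was higher and 0 lower in control slices, and 1 was higher and 2 lower in LTP slices. Of the 5 CA1 and CA3 markers, 2 were higher and 2 lower in control slices, and their sum was 326 to 424 CPM at 1 hr and 432 to 477 CPM at 3 hr, without overlap. Of 9 markers of border-associated macrophages, which share many member genes with microglia, 8 were tested and 0 called by edgeR, with 0 at an unadjusted p under 0.05, and their sum was 12.5 to 16.2 CPM at 1 hr and 12 to 13.3 CPM at 3 hr. Monocyte and neutrophil markers summed to at most 0.267 CPM and lymphocyte markers to at most 0.211 CPM in any library, with Cd3e at 0 in all 12. The part of these markers in the results for the members was not tested.

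**Figure D5:**
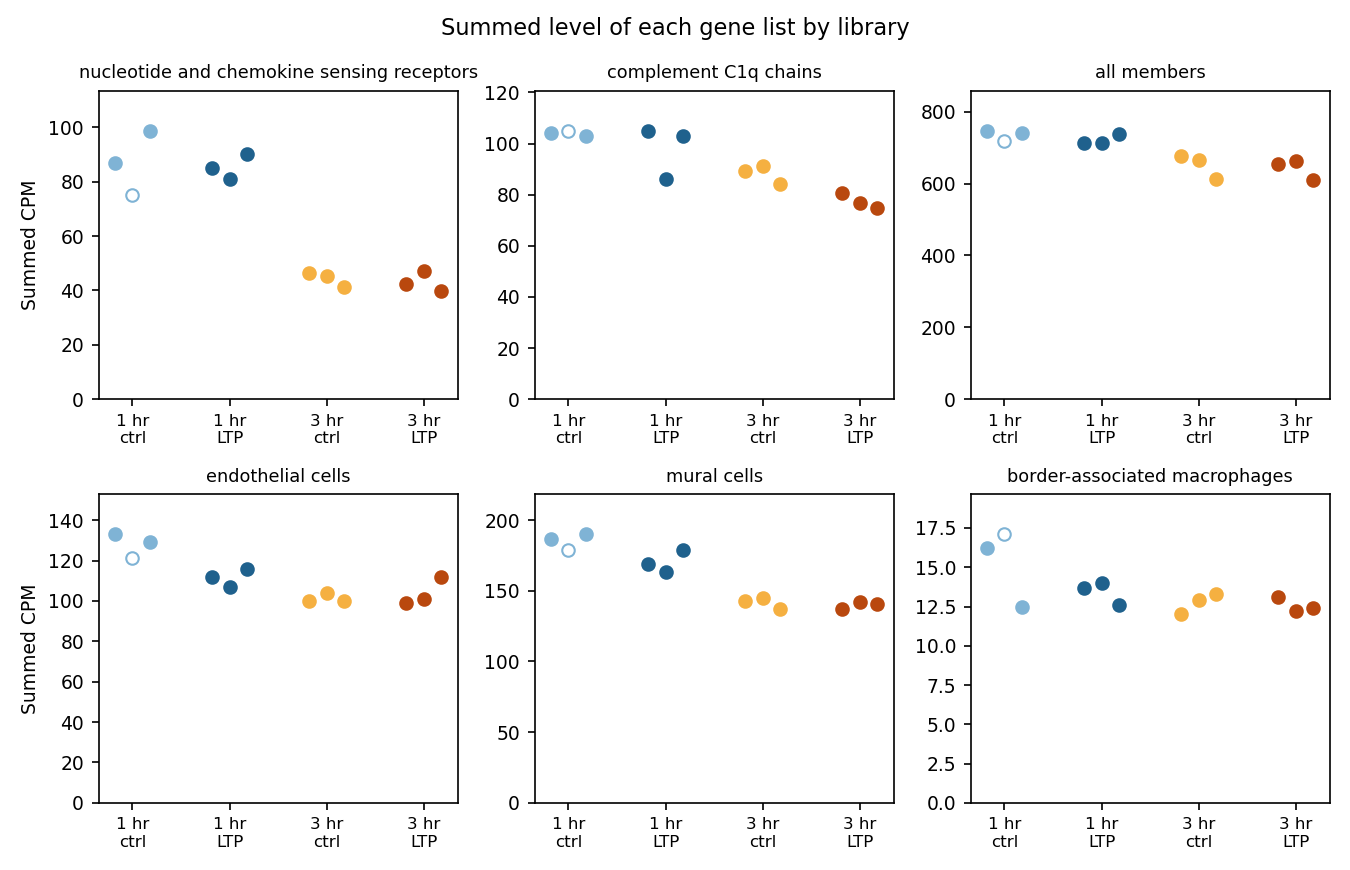
Summed CPM of 6 gene lists in each library, with an open circle for the library set aside. The sensing receptors sum to 81 to 98.7 CPM at 1 hr and 39.8 to 47.2 CPM at 3 hr, and all members to 714 to 747 CPM and 610 to 678 CPM. The mural list is also lower at 3 hr, while the endothelial sums overlap, at 107 to 133 CPM and 99.1 to 112 CPM.

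The sum over all members thus did not overlap between time points, although the list contains members called in opposite directions. The immune receptor group, which includes Cd14, summed to 123 to 127 CPM at 1 hr and 128 to 179 CPM at 3 hr. Within the members the spread over the 11 fitted libraries was widest for Cd14, at 2.55 log2 units between the lowest and highest library, and for P2ry13, at 2.37 units. It was narrowest for Itgb5, at 0.18 units, and Tgfbr1, at 0.27 units, although Itgb5 stood at 31.5 CPM in the library set aside, above its range of 25.6 to 29.1 CPM in the others.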

How the data were processed

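Per the labels and the study's methods, libraries were made with a stranded total RNA kit after removal of ribosomal RNA. The authors aligned reads with STAR to GRCm38 (mm10) and deposited raw counts per gene, 1 table per time point, made with Bioconductor packages; whether counting used strand is not given in the sources used here. Of the 41091 gene identifiers, 40217 matched GENCODE M21. The members and lists were chosen with earlier results of these data known. The submitters' processing notes name DESeq2.

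The counts were tested here in edgeR 4.0.16 (quasi-likelihood fit; limma 3.58.1, R 4.3.3) after filterByExpr and TMM scaling, with Benjamini-Hochberg adjustment over all genes tested and the study's thresholds (adjusted p under 0.1, fold change over 1.2; no fold minimum for the interaction). LTP was tested within each time point, and the time points and the interaction in 1 model of 4 groups with 11 libraries, without 1 hr control 2. SE is the log2 fold change divided by the square root of F, and 95% intervals use the t quantile at the test's degrees of freedom. Values in every library are given for the 5 sensing receptors, the C1q chains and, in each other role group, up to 4 called members with the smallest p, or the member with the smallest p where none was called.

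The labels pair LTP and control libraries by animal. The deviations of paired libraries from their group means correlated across 18240 genes at -0.0149, -0.156 and 0.075 at 1 hr and 0.0385, -0.0275 and 0.218 at 3 hr. Alternatives were DESeq2 1.42.0, limma-voom, other scalings and filters, GC content and length offsets, a replicate block, inclusion of 1 hr control 2, and leaving out each library. On simulated counts the test of 3 hr against 1 hr control recovered 75% of genes changed 1.5-fold and 98% of genes changed 2.0-fold over 18136 genes. There 100 genes were changed at each fold, and 27 unchanged genes were called. Every simulated gene had the same spread setting, unlike the real genes, so these rates do not give the power for the members. No pair of replicates was near identical (chi-square per degree of freedom between 9.49 and 85.6). Floors cover counting error only. Some genes of the pathway lists are counted but not reported by name here.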

Additional observations from a re-analysis of the deposited data

How the results depend on the processing

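Between time points the number of members called stayed within 14 to 21 in control slices (16 in the main analysis) and 17 to 21 in LTP slices (19), and within 13 to 16 and 17 to 22 when each library was left out in turn. Of the called members, 11 of 16 in control slices and 14 of 19 in LTP slices kept the call under all 20 alternatives, with P2ry12, P2ry13, Gpr34, Cx3cr1, Selplg, Olfml3, Inpp5d, Tmem119, Cd14 and Irf8 among both. The most influential choice was the offset for GC content and exonic length. With it, Cd53 (0.29), Laptm5 (-0.27) and Spi1 (-0.29) changed sign and were called in control slices, and over all genes 1786 of 4859 calls were higher, against 2987 of 6102 without it; the cause was not tested. For LTP at 1 hr, 1 member was called with the replicate block and these offsets together (Cd14) and 0 when each library was left out. For LTP at 3 hr, 1 member (Cd14) was called by DESeq2, without a filter beyond 1 count, with the offsets, and with the replicate block, and 2 members (Cd14 higher, Ptprc lower) with the block and the offsets; leaving out each library gave 0 to 2, with Cd14 called without 3 hr LTP 2 and Cd14 and Sall1 without 3 hr LTP 3. The replicate block changed no other call. The interaction gave 0 throughout. Of 3552 member values under an alternative, 263 changed sign while staying uncalled. With 2 or 3 libraries a group, small differences in low genes such as Ikzf1, P2ry6 and Cd33 could not be resolved.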
